A study of Mus musculus with 4 samples.

Results

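The genes of the NF-κB subunits and of their inhibitors and feedback regulators were described in RNA-Seq libraries of wild-type mouse B cells. The 10 members were taken by symbol from the 20599 gene symbols of the deposited tables: the subunits Nfkb1, Nfkb2, Rel, Rela and Relb, the inhibitor (IκB) genes Nfkbia and Nfkbie, the nuclear IκB-type genes Nfkbiz and Bcl3, and Tnfaip3, which encodes the feedback regulator A20. All 10 passed the filter on low counts and were tested. The libraries came from peritoneal B1a cells (n = 2) and splenic follicular B2 cells (n = 2) of wild-type C57BL/6 mice. By the study's methods, B1a cells were sorted by markers that included CD23- IgM+ CD5+ and follicular cells by markers that included IgDhi IgMlo CD21+, and both came from control animals of a study of Dnmt3a deletion in B cells; the methods call these controls littermates in one place and C57BL/6J mice in another. The labels give an age of 4 weeks for all samples, as does a supplementary legend on RNA-Seq reads of B1a and B2 cells, whereas the methods give an older age for the B2 mice. The effects of lineage, tissue of origin and any age difference cannot be told apart. The labels do not say that replicates came from separate mice, although the methods name a pair of controls for each cell type and that legend gives 2 animals each. The p-values measure only the spread between these libraries, and the labels do not settle whether it is technical.

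NF-κB factors are dimers of proteins that share a Rel homology domain. In resting cells IκB proteins hold most dimers in the cytoplasm, and signals from the B cell receptor, CD40, Toll-like receptors or the BAFF receptor release them. The canonical route ends with IκB degradation and nuclear RelA or c-Rel, and the alternative route ends with processing of the Nfkb2 product p100 to p52, which pairs with RelB. Several NF-κB genes, including those of IκBα and A20, are themselves NF-κB targets, which closes negative feedback loops. Both mature B2 cells and B1 cells depend on these factors for survival and for responses to antigen.

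Since members of the family are known to be targets of NF-κB, the sequences just upstream of their starts were examined for the κB consensus, the binding sequence of NF-κB dimers. The search covered both strands of RefSeq promoter windows (GRCm38.p6) of 300 bases, from 250 bases before to 50 bases after an annotated transcription start, and overlapping matches were merged. Of the 10 members, 7 had a window (10 windows in all); Nfkb1, Relb and Nfkbiz are the others. At least 1 match was found in 6 of these 7 genes, against 9.55% of all genes with a window, and in 8 of the 10 windows, against 8.46% of all 32851 windows. The 11 matches lie at 10 distinct places, because windows 2 and 3 of Nfkb2 overlap and share a match. A match is a stretch of letters, not a measured binding site. The members were taken by symbol, but some belong to the family as feedback genes, known as targets of NF-κB. The share of members with a match is therefore not independent of their choice, and the comparison with all genes is descriptive only. The matches are shown here 5′ to 3′ on the strand of the gene, with the match in capitals and 5 flanking bases on each side.
Nfkb2 window 1, starting 39 bases before the start: gtcacGGGAATTCCCCccctc
Nfkb2 window 1, starting 11 bases before the start: cgaaaGGGGCTTTCCcggct
Nfkb2 window 2, starting 236 bases before the start: cggcaGGAATGTCCCcacaa
Nfkb2 windows 2 and 3, shared match: ttttcGGGACTTTCCtaagc
Rel, starting 92 bases before the start: gcagcGGGAAATCCCCccccc
Nfkbia, starting 29 bases before the start: ggcttGGAAATTCCCcgcgc
Nfkbie, starting 106 bases before the start: aaacaGGGGGATTCCggagg
Tnfaip3 window 1, starting 125 bases before the start: acgcgGGGACACCCCggggc
Tnfaip3 window 1, starting 12 bases before the start: ccatcGGAAATCCCCctgtt
Bcl3, just after the start: ggcagGGGAAGTCCCgctgc

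Nfkb2 and Tnfaip3 were the members with 2 matches in a window, a number reached by 0.521% of all windows. The first windows of these genes are given in full, with the matches in capitals. Their windows lie at chr19:46304487-46304786 on the forward strand (Nfkb2) and at chr10:19015361-19015660 on the reverse strand (Tnfaip3).
Nfkb2: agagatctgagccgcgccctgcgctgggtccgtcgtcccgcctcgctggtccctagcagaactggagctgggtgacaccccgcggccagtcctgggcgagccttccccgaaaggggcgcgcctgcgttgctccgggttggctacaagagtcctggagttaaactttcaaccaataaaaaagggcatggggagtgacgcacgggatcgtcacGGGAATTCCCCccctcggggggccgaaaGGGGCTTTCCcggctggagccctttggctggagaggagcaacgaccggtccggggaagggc
Tnfaip3: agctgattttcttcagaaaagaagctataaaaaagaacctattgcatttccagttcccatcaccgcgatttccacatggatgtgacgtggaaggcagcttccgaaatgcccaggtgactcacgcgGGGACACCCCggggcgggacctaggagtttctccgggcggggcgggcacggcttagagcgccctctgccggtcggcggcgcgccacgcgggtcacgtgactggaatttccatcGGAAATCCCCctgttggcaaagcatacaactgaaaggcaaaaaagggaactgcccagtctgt
Rela and the other Tnfaip3 window had no match. These letters were not in those windows, which says nothing of binding elsewhere.

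**Figure D1:**
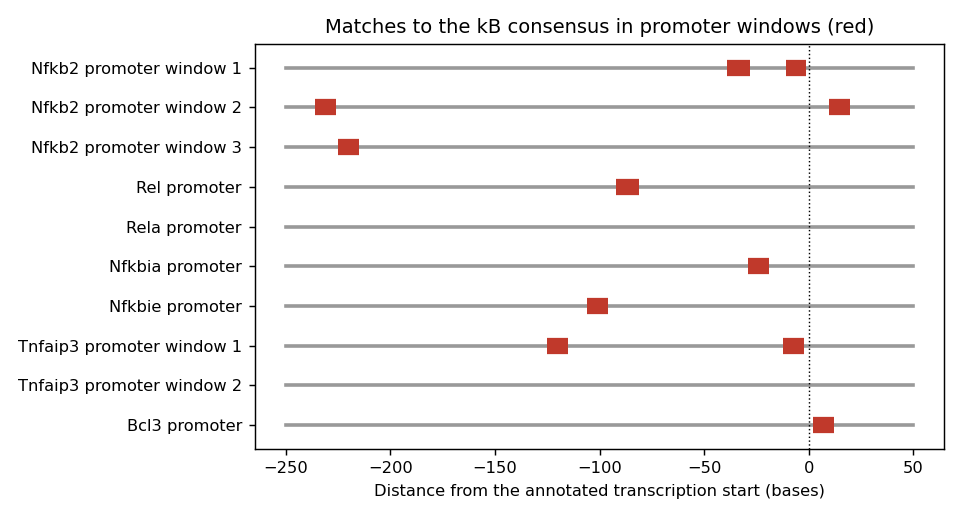
Matches to the κB consensus (red) along the RefSeq promoter windows (grey lines) of 7 member genes, with the distance from the annotated transcription start in bases on the horizontal axis. Of the 10 windows, 8 hold a red block, and the window of Rela and window 2 of Tnfaip3 hold none.

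Library totals lay between 11032732 and 18588623 counts, so that 3 counts, taken as the floor, amounted to at most 0.272 CPM (counts per 1000000 counts of the library); the floor covers counting error only. The lowest count of a member, 361 for Relb in B1a replicate 2, lay far above this floor. Across all tested genes, log2 CPM of replicates correlated with a Pearson r of 0.836 in B1a and 0.966 in B2 cells; genes are not independent replicates. The 5 B cell genes examined as markers (Cd79a, Cd79b, Ms4a1, Pax5 and Ebf1) were above the floor in every library and summed to between 3875 and 4559 CPM. Of these, Ms4a1 and Cd79a were called higher in B1a cells (log2 fold changes 0.73 and 0.53) and Pax5 and Ebf1 lower (-0.90 and -0.58); with 1 library left out, the highest adjusted p in edgeR was 0.0183 for Pax5 and 0.113, 0.216 and 0.38 for Ms4a1, Cd79a and Ebf1. Fcer2a, which encodes the sorting antigen CD23, stood at 61.4 and 58.6 CPM in B1a and at 976 and 922 CPM in B2 libraries. Cd5, which encodes another, stood at 15.3 and 21.5 CPM in B1a and at 5.71 and 2.31 CPM in B2 libraries. Cd5 did not pass (adjusted p = 0.146, edgeR). Of 6 sort marker genes, 2 were called higher in B1a cells and 2 in B2 cells.

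The 10 members were well expressed in both cell types. Compared per length, in TPM (transcripts per 1000000 transcripts), they lay between the 74.9th and the 98.4th percentile of all symbols in each library. Symbols without counts are included here: between 11290 and 14223 of the 20599 symbols had at least 1 count in a library. In B1a cells the order of mean TPM ran from Nfkbia (338 ± 66.1, SD, n = 2) through Nfkb1 (248 ± 28.4), Rel (206 ± 36.7), Nfkbie (187 ± 34.5), Nfkb2 (144 ± 27.8), Nfkbiz (143 ± 18.8), Tnfaip3 (132 ± 22.7) and Rela (132 ± 46.0) to Bcl3 (62.4 ± 1.95) and Relb (59.1 ± 34.9). In this order, the replicate ranges of neighbours stood apart only between Nfkbia and Nfkb1 and between Rela and Bcl3. In B2 cells the order ran from Nfkbia (308 ± 14.8 TPM) through Nfkb2 (286 ± 2.47), Rel (257 ± 15.1), Nfkb1 (220 ± 4.73), Nfkbie (208 ± 25.3), Rela (121 ± 13.5), Relb (104 ± 14.6) and Bcl3 (96.4 ± 5.10) to Nfkbiz (83.9 ± 0.785) and Tnfaip3 (50.02 ± 1.39). Here the ranges overlapped between Nfkb1 and Nfkbie, between Rela and Relb, and between Relb and Bcl3, and stood apart for the other neighbours. Nfkbia had the highest level in both cell types, whereas Tnfaip3 was the lowest in B2 cells and close to Rela, Nfkbiz and Nfkb2 in B1a cells.

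The comparison of B1a with B2 cells asked whether transcript levels of these genes differ between the lineages. Tnfaip3 and Nfkbiz were higher in B1a cells, by 3.11-fold and 2.0-fold. The remaining 8 members did not pass the test (edgeR quasi-likelihood, Benjamini-Hochberg adjusted p over all 12078 tested genes under 0.05). The 2 called members were both higher in B1a cells, and 4.24% of all tested genes were called in that direction; 0 members were called higher in B2 cells, against 1.5% of all tested genes. At an unadjusted p under 0.05, 1 member, Nfkb2, was higher in B2 cells, and DESeq2 called it. In either direction 5.74% of all tested genes were called. The unadjusted p was under 0.05 for 4 members and for 20.9% of all tested genes. With 2 libraries a group, the smallest p an exact permutation test allows is 0.333, and each call therefore draws on the spread shared across genes in edgeR. In bulk samples, fewer cells of a type and less RNA per cell cannot be told apart.

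**Figure D2:**
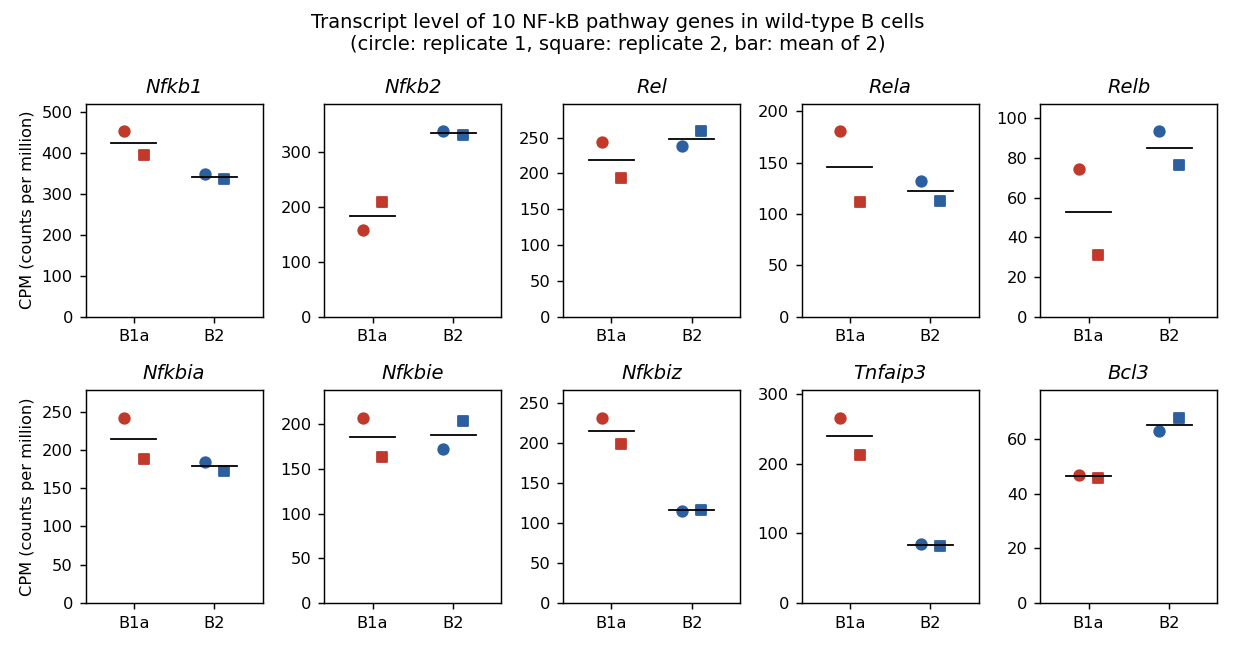
CPM of each member gene (vertical axis of each panel, from 0) in the B1a (red) and B2 (blue) libraries, with a circle for replicate 1, a square for replicate 2 and a bar for the mean. The points of Tnfaip3 and Nfkbiz lie higher in both B1a than in both B2 libraries, those of Nfkb2 lie lower, and those of Rel, Rela and Nfkbie overlap between the cell types.

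Tnfaip3 encodes A20, a ubiquitin-editing enzyme that restrains NF-κB signals downstream of many receptors. It lies on chromosome 10 of GRCm38 from 19000910 to 19015410. Tnfaip3 stood at 266 and 212 CPM in the B1a libraries and at 84.5 and 81.3 CPM in the B2 libraries. Both B1a libraries thus lay far above both B2 libraries, and the B2 libraries were almost equal. On the log2 scale B1a cells were higher by 1.64 (standard error 0.17, 95% interval from 1.22 to 2.06, adjusted p = 0.00597 in the edgeR quasi-likelihood fit after Benjamini-Hochberg correction). Of 10 alternative fits, 9 passed as well; limma on log2(TPM + 1) without a filter on TPM gave an adjusted p of 0.0539. With any 1 library left out, the log2 fold change stayed between 1.46 and 1.79 (edgeR).

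Nfkbiz encodes IκBζ, a nuclear protein of the IκB type that acts with NF-κB dimers on secondary response genes. The gene lies on chromosome 16 from 55811375 to 55838954. Nfkbiz stood at 231 and 199 CPM in the B1a libraries and at 115 and 116 CPM in the B2 libraries. The cell types did not overlap, and the distance between them was larger than the distance between the B1a replicates. It was higher in B1a cells by 1.00 on the log2 scale (standard error 0.15, 95% interval from 0.63 to 1.38, adjusted p = 0.0200 from the same edgeR test). The call was lost on the TPM scale, where limma gave adjusted p-values of 0.0768 with a pseudocount of 1, 0.0861 with a pseudocount of 0.1 and 0.0828 without a filter. It was also lost in edgeR without B2 replicate 1 (adjusted p = 0.0689) or without B2 replicate 2 (adjusted p = 0.0532), with log2 fold changes of 0.98 and 1.02.

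Bcl3, which encodes the other nuclear IκB-type protein and can serve as a coactivator for p50 and p52 dimers, did not share this direction. It lies on chromosome 7 from 19808462 to 19822824 and overlaps a long noncoding RNA gene, Gm16174. Bcl3 stood at 46.9 and 45.9 CPM in the B1a libraries and at 62.9 and 67.8 CPM in the B2 libraries. The values lay lower in both B1a libraries, but the log2 fold change of -0.39 did not pass (standard error 0.22, 95% interval from -0.93 to 0.16, adjusted p = 0.402 from the same edgeR test).

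Nfkb2, whose product p100 gives p52 in the alternative route, was the member with the largest difference toward B2 cells. The gene lies on chromosome 19 from 46300994 to 46312400, where it overlaps Psd and a long noncoding RNA gene, 4833438C02Rik. It stood at 158 and 210 CPM in the B1a libraries and at 338 and 331 CPM in the B2 libraries. Both B1a libraries were lower than both B2 libraries, and the B1a replicates differed from each other more than the B2 replicates did. The log2 fold change of -0.75 did not pass (standard error 0.17, 95% interval from -1.17 to -0.34, adjusted p = 0.0656 from the same edgeR test). It lay near the threshold, and 6 of 10 alternative fits did pass, with adjusted p-values between 0.00126 and 0.0729 over the 10. Without B1a replicate 1 the log2 fold change was -0.56 (edgeR), and without B1a replicate 2 it was -0.97 (edgeR). In all fits of a member without a B1a library, the remaining one is assumed to vary as the B2 libraries do. Only effect sizes are therefore given for them. Of the genes with 2 κB matches in a window, Tnfaip3 was thus called higher in B1a cells, and Nfkb2 was lower without passing.

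Relb encodes RelB, the usual partner of p52, and lies on chromosome 7 from 19606217 to 19629438. It stood at 74.5 and 31.2 CPM in the B1a libraries and at 93.4 and 76.5 CPM in the B2 libraries. B1a replicate 1 almost reached B2 replicate 2, whereas B1a replicate 2 was far below all others. The ratio between the B1a replicates, 2.39, was the largest of the 10 members. The log2 fold change of -0.58 did not pass (standard error 0.42, 95% interval from -1.60 to 0.45, adjusted p = 0.520 from the same edgeR test). It rested on B1a replicate 2: it was -1.33 without B1a replicate 1 and -0.08 without B1a replicate 2 (edgeR).

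Nfkb1, on chromosome 3 from 135584655 to 135691969, encodes p105, the precursor of p50 and itself an IκB-type inhibitor. It overlaps a long noncoding RNA gene, Gm46827. It stood at 452 and 393 CPM in the B1a libraries and at 347 and 337 CPM in the B2 libraries. Both B1a libraries were higher, by 0.41 on the log2 scale, which did not pass (standard error 0.12, 95% interval from 0.11 to 0.72, adjusted p = 0.137 from the same edgeR test). Nfkb1 passed with DESeq2 (adjusted p = 0.0347). Its log2 fold change in edgeR was 0.31 without B1a replicate 1 and 0.51 without B1a replicate 2.

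Rel encodes c-Rel, the subunit most typical of lymphocytes, and lies on chromosome 11 from 23736847 to 23770969. Libraries of B1a cells gave 243 and 194 CPM and those of B2 cells 238 and 259 CPM. The groups overlapped, and the log2 fold change was -0.08 (95% interval from -0.47 to 0.32, adjusted p = 0.855 from the same edgeR test), and was 0.075 without B1a replicate 2.

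Rela encodes RelA (p65) and lies on chromosome 19 from 5637442 to 5648134. Libraries of B1a cells gave 181 and 112 CPM and those of B2 cells 132 and 113 CPM. B1a replicate 1 stood above the other 3 libraries, and the groups overlapped. The difference of 0.36 on the log2 scale did not pass (95% interval from -0.27 to 0.99, adjusted p = 0.510 from the same edgeR test). It was -0.028 without B1a replicate 1 and 0.66 without B1a replicate 2 (edgeR), so its size rested on B1a replicate 1.

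Nfkbia encodes IκBα, the fast-resynthesized inhibitor of the canonical route, and lies on chromosome 12 from 55489409 to 55492647. Libraries of B1a cells gave 242 and 187 CPM and those of B2 cells 185 and 173 CPM. B1a replicate 2 was only slightly above B2 replicate 1. A difference of 0.37 on the log2 scale did not pass (95% interval from -0.04 to 0.79, adjusted p = 0.289 from the same edgeR test). With 1 library left out it lay between 0.18 and 0.54 (edgeR), the latter without B1a replicate 2.

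Nfkbie encodes IκBε, an inhibitor of dimers that hold c-Rel and RelA, and lies on chromosome 17 from 45555700 to 45563169. Libraries of B1a cells gave 207 and 163 CPM and those of B2 cells 172 and 204 CPM. The groups overlapped fully, and the log2 fold change was 0.08 (95% interval from -0.36 to 0.53, adjusted p = 0.864 from the same edgeR test). Its sign changed on the TPM scale (-0.16), where the median of all genes was shifted to -0.30, and without B1a replicate 1 (-0.099) or B2 replicate 1 (-0.046).

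**Figure D3:**
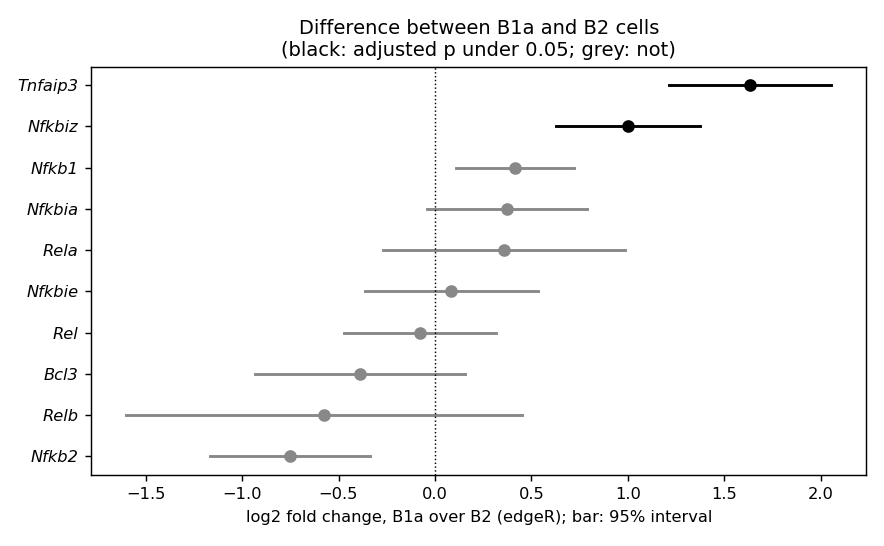
Log2 fold change of B1a over B2 cells for each member gene (horizontal axis) from edgeR, with the 95% interval as a bar, in black where the adjusted p is under 0.05. Tnfaip3 (1.64) and Nfkbiz (1.00) are black, and Nfkb2 (-0.75) is the lowest point.

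By range alone, 4 members (Nfkb1, Nfkbia, Nfkbiz and Tnfaip3) were higher in both B1a libraries, against 21.3% of all tested genes, and 3 (Nfkb2, Relb and Bcl3) were higher in both B2 libraries, against 34.8%. The other 3 overlapped. In TPM, Nfkbia overlapped as well and Rel was higher in both B2 libraries, with the median log2 fold change of all genes at -0.30. Shares over all genes were taken in CPM only, where 56.1% of tested genes had ranges that stood apart in either direction. The median log2 fold change of the 10 members was 0.22, and that of all tested genes was -0.03. Of the 10 members, 9 were higher in B1a replicate 1 than in B1a replicate 2, with Nfkb2 as the exception, whereas 51.4% of the 3587 tested genes within the members' range of mean CPM were. The median ratio of the larger to the smaller B1a replicate was 1.26 for the members and 1.22 for those 3587 genes; between the B2 replicates it was 1.07 and 1.09.

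The mix of subunit transcripts was described as the share of each in the summed TPM of the 5 subunits, which does not depend on the scaling of a library. Nfkb1 made up 30.7% and 32.3% of subunit transcripts in the B1a libraries and 22.3% and 22.2% in the B2 libraries. Nfkb2 made up 14.3% and 23.2% in the B1a libraries and 28.7% and 29.2% in the B2 libraries. Nfkb1 therefore had the largest share in B1a cells and Nfkb2 in B2 cells, and the groups did not overlap for either. The ratio of Nfkb2 to Nfkb1 was 0.465 and 0.720 in the B1a libraries and 1.29 and 1.32 in the B2 libraries.

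Rel had an almost equal share in all libraries, between 24.6% and 27.5%. Rela made up 18.8% and 14.0% in the B1a libraries and 13.0% and 11.5% in the B2 libraries, which did not overlap but lay close together. Relb made up 9.60% and 4.89% in the B1a libraries and 11.4% and 9.59% in the B2 libraries, and these ranges met at 9.60% and 9.59%. Among pairs of subunits, the ratio of Rel to Rela was 1.42 and 1.82 in the B1a libraries and 1.89 and 2.40 in the B2 libraries, which did not overlap, and that of Relb to Rel overlapped (0.361 and 0.191 against 0.463 and 0.349). No test was run on these shares and ratios, since an exact permutation test of 2 libraries against 2 has a smallest p of 0.333.

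**Figure D4:**
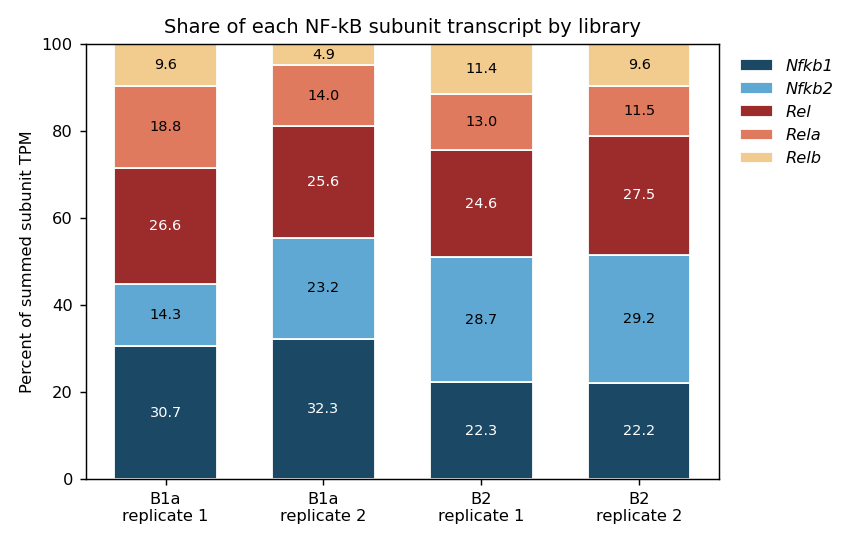
Share of each NF-κB subunit in the summed TPM of the 5 subunit genes (vertical axis, percent) for each library. The Nfkb1 block (dark blue) is larger in the B1a libraries (30.7% and 32.3%) than in the B2 libraries (22.3% and 22.2%), and the Nfkb2 block (light blue) is smaller.

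The cytoplasmic inhibitors were set against the subunits in the same way. The TPM of Nfkbia, Nfkbie and Nfkbib, which encodes IκBβ, summed to 0.723 and 0.718 of the summed subunit TPM in the B1a libraries and to 0.560 and 0.577 in the B2 libraries. The difference of 0.152 was larger than the spread between replicates (SD of 0.00353 in B1a and 0.0122 in B2 cells). The summed inhibitor TPM overlapped between the cell types (631 and 506 in B1a, 560 and 561 in B2), and the summed subunit TPM was lower in the B1a libraries (873 and 706) than in the B2 libraries (1002 and 973). On average the inhibitors summed to 569 TPM in B1a and 561 TPM in B2 cells, and the subunits to 789 and 987 TPM. In these means the inhibitors were almost level and the subunits lower in B1a cells. On the TPM scale, however, the median log2 fold change of all genes was -0.30. Which side of the ratio moved therefore depends on the scaling of the libraries and cannot be told. Among the subunits Nfkb2, which did not pass, differed most (144 TPM in B1a and 286 TPM in B2 cells). Nfkb1, whose product p105 is also an IκB-type inhibitor, was counted as a subunit. No test was run on the ratio. Within the inhibitors, the ratio of Nfkbia to Nfkbie was 1.82 and 1.79 in the B1a libraries and 1.68 and 1.32 in the B2 libraries.

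The wider pathway was described from lists of 32 further genes. Of these, 0 were called higher in B1a cells and 1, Otulin, was called higher in B2 cells; that is 3.12% of the 32, against 5.74% of all tested genes, and their median log2 fold change was -0.014. Otulin, a deubiquitinase specific for linear ubiquitin chains, stood at 44.5 and 54.3 CPM in the B1a libraries and at 110 and 111 CPM in the B2 libraries. Its log2 fold change was -1.06 (standard error 0.21, adjusted p = 0.0431 from the same edgeR test). The call was lost in edgeR without B2 replicate 1 (adjusted p = 0.284) or B2 replicate 2 (adjusted p = 0.351). Thus, of the enzymes that remove or edit ubiquitin on NF-κB signaling proteins, Tnfaip3 was called higher and Otulin lower in B1a cells. The other 8 genes of deubiquitinases and A20 partners did not pass, among them Tax1bp1 (log2 fold change -0.41), Zc3h12a (0.073) and Tnip1 (0.11), of which the last 2 turned below 0 on the TPM scale.

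Of the IκB kinases, the kinases above them and their regulatory subunit and adaptors, 0 of 10 genes were called by edgeR. Tab2 and Ikbke, 2 of the 10, had an unadjusted p under 0.05. Over all tested genes, 5.74% were called and 20.9% had an unadjusted p under 0.05. Ikbke was higher in B1a cells by 1.34 on the log2 scale (adjusted p = 0.0891, edgeR), and 3 of 10 alternative fits passed. Ikbkb, which encodes the catalytic kinase of the canonical route, stood at 284 and 319 CPM in the B1a libraries and at 328 and 296 CPM in the B2 libraries. Its log2 fold change was 0.057 and turned to -0.21 on the TPM scale. Tab2, an adaptor of the kinase TAK1, and Tbk1, an IκB kinase-related kinase, had log2 fold changes of -0.49 and -0.10. Of the ubiquitin ligases and adaptors, 0 of 10 were called by edgeR. An unadjusted p under 0.05 was found for 2 of them, against 20.9% of all tested genes. The 2 were Traf2 and Traf6, with log2 fold changes of -0.81 and -0.71 (adjusted p = 0.145 and 0.144, edgeR). Birc3, Sharpin and Rbck1 were not among them, with log2 fold changes of 0.14, 0.29 and -0.11. The other IκB genes Nfkbid, Nfkbib and Nfkbil1 had log2 fold changes of -0.01, 0.20 and -0.07, and 0 of 3 were called by edgeR, with 0 at an unadjusted p under 0.05. DESeq2 called 2 of the 32 genes, and 1562 of all 12078 tested genes.

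Of 30 genes listed as known NF-κB targets in lymphocytes, 25 were tested (not Bcl2a1a, Il6, Ccl3, Ccl4 and Ier3), and 6 were called higher in B1a cells and 1 in B2 cells (28% of those tested). Of all tested genes, 5.74% were called, 4.24% higher in B1a and 1.5% higher in B2 cells. The list was chosen with earlier results of these data known, so its share is descriptive only. Their median log2 fold change was 0.16. Myc and Ccnd2, a growth regulator and a D cyclin, were found at 350 and 438 CPM and at 484 and 603 CPM in the B1a libraries, and at 90.9 and 112 CPM and at 121 and 159 CPM in the B2 libraries, with log2 fold changes of 2.06 each. Cd80, a costimulatory ligand, stood at 62.5 and 51.9 CPM in the B1a libraries and at 2.17 and 4.64 CPM in the B2 libraries. Traf1, an adaptor of TNF receptors, had a log2 fold change of 1.43 (adjusted p = 0.0448 from the same edgeR test), and its adjusted p rose up to 0.0855 in the alternative fits, to 0.219 without B2 replicate 1 and to 0.442 without B2 replicate 2. Il10 stood at 20.6 and 7.61 CPM in the B1a libraries and had 0 counts in both B2 libraries (adjusted p = 0.0322 from the same edgeR test; 7 of 9 alternative fits passed, and the filter of 10 counts in every library removed the gene). Against the floor of 3 counts per library, its mean was at least 65.2-fold higher in B1a cells, and at least 35.1-fold higher without B1a replicate 1.

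In the other direction, Icosl, the ligand of ICOS, stood at 68.7 and 27.7 CPM in the B1a libraries and at 481 and 415 CPM in the B2 libraries (log2 fold change -3.11, adjusted p = 0.0137 from the same edgeR test; 9 of 10 alternative fits passed). Ltb, Junb and Birc3 did not pass, with log2 fold changes of -0.06, 0.48 and 0.14. Targets of the pathway therefore lay in both directions.

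Several measures differed between the cell types besides Tnfaip3 and Nfkbiz, both of which are rapidly induced genes. A list of 15 immediate early genes, which respond within minutes to receptor signals and to cell handling, summed to 5601 and 5455 CPM in the B1a libraries and to 3557 and 3148 CPM in the B2 libraries. Of the 15, 5 were called higher in B1a cells and 0 in B2 cells, with 33.3% called in all and a median log2 fold change of 0.55. Of all tested genes, 5.74% were called, and this list too was chosen with earlier results of these data known. The called genes were Atf3, Klf6, Fosb, Fos and Dusp1; the call of Dusp1 passed in 8 of 10 alternative fits and those of the others in all 10. Fosb had a log2 fold change of 2.39, and Atf3 stood at 378 and 297 CPM in the B1a libraries and at 1.09 and 1.13 CPM in the B2 libraries. Zfp36, Jund and Junb did not pass, with log2 fold changes of -0.52, 0.36 and 0.48. In all, 12 of the 15 had a log2 fold change above 0 and 3, among them Zfp36, below 0. The part of the immediate early genes in the difference of Tnfaip3 and Nfkbiz was not tested.

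Macrophage marker genes, of which 8 of 9 had an entry, summed to 189 and 215 CPM in the B1a libraries and to 62.3 and 63.4 CPM in the B2 libraries. Fcgr1 was at 0 in both B1a libraries and in B2 replicate 2, Cd14 was at 0 in B2 replicate 2, and Lyz2 accounted for most of the B1a sum. Between 6 and 8 of the genes were above the floor in a library. Mast cell markers summed to 16.8 and 4.93 CPM in the B1a libraries, with all 3 above the floor, and to 0 and 0.968 CPM in the B2 libraries. T cell markers summed to between 66.2 and 104 CPM, with Cd4, Cd28 and Thy1 at 0 in both B1a libraries and 8 of 8 above the floor in both B2 libraries. Neutrophil markers were at 0 in both B1a libraries and summed to 1.36 and 6.83 CPM in the B2 libraries, where 2 of 4 were above the floor. Erythroid markers summed to 75.9 and 485 CPM in the B1a libraries and to 37.7 and 83.2 CPM in the B2 libraries. Plasma cell markers, of which 3 of 4 had an entry, summed to between 79.6 and 111 CPM, with Sdc1 at 0 in B1a replicate 1. The part of these cells in the levels of the members was not tested.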

How the data were processed

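RNA-Seq libraries of sorted wild-type B1a and B2 cells were analyzed. The authors aligned the reads to mm10, used RSEM (version 1.25.0 by the methods, 1.2.29 in the submitters' processing notes) on RefSeq genes, and deposited TPM and an expected count, which is not normalized and divides a read among the entries it matches, for 21970 gene entries. The RSEM posterior standard deviation of a member's count was at most 0.0894% of it, so few reads were divided. Whether counting used strand was not given in the sources used here, so reads of overlapping genes cannot be told apart.

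Entries of the same symbol were added up and rounded to whole counts. After filterByExpr and TMM scaling, edgeR 4.0.16 (R 4.3.3) ran its quasi-likelihood test over 12078 genes with Benjamini-Hochberg adjustment. Standard errors came from the F statistic. CPM are counts over the library total, without TMM factors (0.963 to 1.05). Positions and promoters are from RefSeq GRCm38.p6, the build of mm10. All 10 members were named, and of each list the called genes (at most 5 in each direction) and the 3 of highest mean TPM that did not pass. Ikbke, Traf2 and Traf6 were named in addition to this rule, as pathway genes with an unadjusted p under 0.05. Members and lists were chosen with earlier results of these data known. The tests were tested on simulated data. The alternatives were DESeq2 1.42.0, upper quartile factors, limma-voom (limma 3.58.1) without and with a weight for each cell type, other filters on counts, limma on log2(TPM + 1) and log2(TPM + 0.1), entries kept separate, the replicate number as a block, a minimum fold change of 1 on the log2 scale, and leaving out each replicate. EBSeq, which the methods name, was not run. Protein sequences were not used here, and 1 pathway list and 1 marker gene are not reported here.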

Additional observations from a re-analysis of the deposited data

How the results depend on the processing

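The count of 2 members called moved to 4 with DESeq2, to 1 with limma on log2(TPM + 0.1) and to 0 with log2(TPM + 1) without a filter, and lay between 1 and 6 with a replicate left out. Members called higher in B1a cells (2) became 1 on both filtered TPM scales and 0 without a filter on TPM, and lay between 1 and 5 with a replicate left out. Members called higher in B2 cells (0) became 1, in each case Nfkb2, with DESeq2, limma-voom with and without weights, both other count filters, limma on log2(TPM + 1) and the replicate block, and lay between 0 and 2 with a replicate left out. Of the pathway genes (1), 2 were called with DESeq2, limma-voom with weights and the count filter of 1, and between 0 and 11 with a replicate left out. Of the target genes (7), 4 were called with limma on log2(TPM + 1) without a filter and between 7 and 17 with a replicate left out. The count over all genes (693) became 1562 with DESeq2, 1415 with limma-voom with weights, 1141 with the count filter of 1, 359 with limma on log2(TPM + 0.1), 202 with log2(TPM + 1) without a filter, and between 539 and 6143 with a replicate left out. The counts were highest without a B1a replicate, where the lone B1a library is assumed to vary as the B2 libraries do; the cause of the other moves was not tested. On the TPM scale the median log2 fold change of all genes was -0.30.

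Replicates of the cell types share a number, and the methods name no pairing between them. The correlation of their deviations from the group means was -0.035 for the same numbers. With 2 libraries a group this is a single value taken over genes, so it cannot exclude a shared animal or batch. With the replicate block, 1481 genes, 3 pathway genes and 11 target genes were called, 1 member, Nfkb2, gained a call (adjusted p = 0.000463, edgeR) and no other member changed its call.

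Of 150 refits of single members, 122 kept direction and side of the threshold, 15 gained and 6 lost a call, and 7 turned direction. The log2 fold change of Nfkbie turned to -0.16 in all 3 TPM fits and lay between -0.099 and 0.24 with a replicate left out, that of Rel between -0.25 and 0.075 and that of Rela between -0.028 and 0.66. Of 419 refits of the 28 other genes named by the rule, 361 kept direction and side, 17 gained and 13 lost a call, and 28 turned direction, all of them in genes that had not passed. In the TPM fits these were Nfkbib (-0.057, with a pseudocount of 0.1 -0.059), Ikbkb (-0.209, -0.210), Birc3 (-0.106, -0.107), Zc3h12a (-0.161, -0.162) and Tnip1 (-0.079, -0.080). Ikbkb also turned with upper quartile factors (-0.012). With a replicate left out, the log2 fold changes lay between -0.078 and 0.049 for Nfkbid, -0.154 and 0.492 for Nfkbib, -0.355 and 0.206 for Nfkbil1, -0.030 and 0.136 for Ikbkb, -0.057 and 0.205 for Zc3h12a, -0.165 and 0.343 for Tnip1, and -0.131 and 0.0042 for Ltb. Likewise, the difference between B1a and B2 cells in subunit share kept its direction for Nfkb1 (8.45 to 10.03 percentage points), Nfkb2 (-14.7 to -5.76), Rela (1.81 to 6.57) and Relb (-5.60 to -0.88), but not for Rel (-1.41 to 1.51).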
